A study of Mus musculus with 12 samples.

Results

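Rag1, Rag2, Dntt, Vpreb1, Vpreb3 and Igll1, the genes of V(D)J recombination and of the surrogate light chain, were read in RNA from mouse bone marrow. They were chosen by symbol, and the 6 rows were found among the 53801 genes of the deposited tables. All 6 were among the 15119 genes that passed the filter on low counts. The study comprised 12 libraries of C57BL/6N marrow in 4 groups of 3. Sham mice were operated on without infarction, Sham-E mice were sham-operated and given EMPA, MI mice had a myocardial infarction, and MI-E mice had an infarction and EMPA. Infarction was made by ligating the LAD, the left anterior descending coronary artery, under isoflurane, per the labels' protocols. The age and sex of the mice, the dose of EMPA and the time of sampling are not stated in the labels. Libraries are named by their group and the number in the deposited column names. One library, Sham-E 1, stood apart in all 6 genes, so each comparison is given with and without it.

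Developing B cells assemble their antigen receptor genes by cutting DNA beside V, D and J segments and joining the ends. RAG1 and RAG2 form the recombinase that makes the cuts, and TdT, the product of Dntt, adds untemplated nucleotides at the joints of pro-B cells. Once a heavy chain has been made, it pairs with a surrogate light chain of VpreB and Igll1 protein to form the pre-B-cell receptor, which signals for expansion. The genes of this machinery are shut down as cells mature, so their RNA marks pro-B and pre-B cells, and Rag1, Rag2 and Dntt are also used by thymocytes.

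On the mm10 build in GENCODE M21, Rag1 lies on the minus strand of chromosome 2 (chr2:101638282-101649501) and Rag2 on the plus strand (chr2:101624718-101632529). These neighbours point towards each other with 5752 bases between them. Vpreb1 (chr16:16868403-16870843) and Igll1 (chr16:16860671-16863985) both lie on the minus strand of chromosome 16, separated by 4417 bases. Dntt is on the plus strand of chromosome 19 (chr19:41029275-41059525), and Vpreb3 is on the plus strand of chromosome 10 (chr10:75943057-75949657). The longest protein-coding transcripts of Vpreb1 and its near copy Vpreb2 were 96.5% identical, and 50% of the 31-base words of Vpreb1 also occurred in Vpreb2. The split of reads between these copies is therefore uncertain. Whether the counting used strand is not stated in the labels, and 108 exonic bases of Vpreb1 (9.01%) overlap Top3b on the opposite strand. Of the exonic bases of Rag2, 208 (6.07%) overlap B230118H07Rik on the opposite strand, and 80 of Rag1 (1.21%) overlap it on the same strand.

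The promoters of Rag1, Vpreb1 and Igll1 are shown because they share an E-box, the kind of site that E proteins such as the product of Tcf3 bind. Rag2, Dntt and Vpreb3 were low in the same libraries and had no E-box match. Any part of the E-box in the levels was not tested. The sequences are from RefSeq on GRCm38.p6 and give the 250 bases before the transcription start, 5′ to 3′ on the strand of the gene: chr2:101649533-101649782 for Rag1, chr16:16869256-16869505 for Vpreb1 and chr16:16863986-16864235 for Igll1, all on the minus strand. The Vpreb1 window overlaps an exon of a longer non-coding Vpreb1 transcript in GENCODE M21. Capitals mark the motif matches described next.
Rag1: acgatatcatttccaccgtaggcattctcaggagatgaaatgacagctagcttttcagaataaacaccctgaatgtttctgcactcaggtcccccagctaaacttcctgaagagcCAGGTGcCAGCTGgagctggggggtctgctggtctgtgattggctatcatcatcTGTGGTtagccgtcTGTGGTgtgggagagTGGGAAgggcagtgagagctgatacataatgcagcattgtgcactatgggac
Vpreb1: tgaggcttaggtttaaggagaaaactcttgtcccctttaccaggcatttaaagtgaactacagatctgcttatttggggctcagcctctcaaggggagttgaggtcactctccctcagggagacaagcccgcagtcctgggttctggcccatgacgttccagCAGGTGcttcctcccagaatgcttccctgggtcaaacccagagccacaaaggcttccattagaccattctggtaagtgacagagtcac
Igll1: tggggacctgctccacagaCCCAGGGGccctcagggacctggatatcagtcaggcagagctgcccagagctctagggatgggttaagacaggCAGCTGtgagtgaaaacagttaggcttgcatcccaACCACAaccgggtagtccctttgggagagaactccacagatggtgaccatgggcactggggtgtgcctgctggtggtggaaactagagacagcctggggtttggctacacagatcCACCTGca

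Each motif was searched on both strands from 250 bases before to 50 bases after the start, and all 6 genes had a RefSeq promoter among 32851. The E-box CAGGTG was found in Rag1, Vpreb1 and Igll1, and in 20.2% of all promoters. The E-box CAGCTG was found in Rag1 and Igll1 (16.3% of all promoters). The EBF1 core CCCNNGGG was found in Igll1 alone among the 6 (13.7%). The RUNX motif TGTGGT was found in Rag1, at 2 positions, and in Vpreb3 and Igll1 (16.8%), and the Ikaros motif TGGGAA in Rag1 (25.6%). The FOXO motif GTAAACA occurred in none of the 6 and in 3.65% of all promoters. None of the 6 motifs occurred in the windows of Rag2 or Dntt. No match overlapped another, and a match describes the letters alone.

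**Figure D1:**
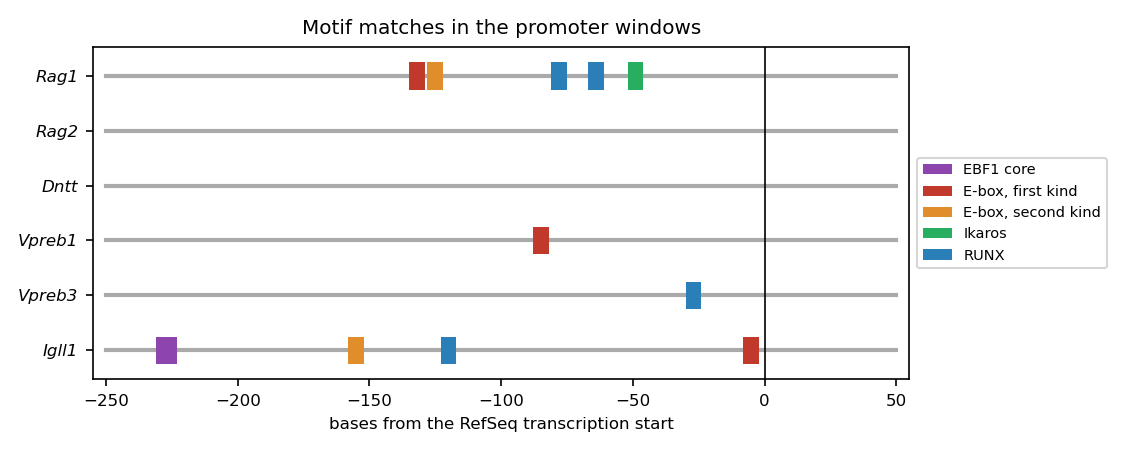
Positions of the motif matches in the RefSeq promoter windows of the 6 genes, in bases from the transcription start (vertical line); each coloured bar is 1 match on either strand, the first kind of E-box being CAGGTG and the second CAGCTG. Rag1 had 5 matches, Igll1 4, Vpreb1 and Vpreb3 1 each, and Rag2 and Dntt none.

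Total counts ran from 21175087 to 24606783 per library. Levels are CPM, counts scaled to a common library total with TMM factors, unless TPM, which also divides by transcript length, is named. The 6 genes took 0.0346% to 0.0554% of counts in the Sham libraries and 0.0406% and 0.0388% in Sham-E 2 and Sham-E 3. They took 0.00982% to 0.0204% in the MI libraries, 0.00905% to 0.0126% in MI-E and 0.00163% in Sham-E 1. Of 14 thymocyte and T-cell markers 12 passed the filter, Ptcra did not, and Bcl11b was not found by its symbol. The summed TPM of those 12 was 98.5 to 125 in MI-E, 78.3 to 99.8 in MI, 79.1 to 141.4 in the Sham-E libraries and 76.1 to 130.2 in the Sham libraries. Ptcra, the pre-T-cell receptor chain that marks thymocytes, was at most 0.05 TPM in every library. In whole marrow, fewer cells of a type and less RNA per cell cannot be told apart.

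Rag1, the catalytic subunit of the recombinase, was at 125.5, 253.8 and 259.6 CPM in Sham, at 185.4 and 206.9 in Sham-E 2 and Sham-E 3, and at 1.21 in Sham-E 1. It was at 23.4, 109.6 and 34.6 CPM in MI 1, MI 2 and MI 3, and at 46.7, 36.5 and 32.6 in MI-E. All 6 infarct libraries lay below the 5 sham-operated libraries other than Sham-E 1, but MI 2 came close to the lowest Sham library, while the MI-E libraries were close to one another.

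Rag2, its partner subunit, was at 12.7, 20.6 and 19.4 CPM in Sham, at 15.2 in both Sham-E 2 and Sham-E 3, and at 0.173 in Sham-E 1. It was at 2.86, 12.0 and 4.14 CPM in MI 1, MI 2 and MI 3, and at 3.81, 2.76 and 2.28 in MI-E. As for Rag1, MI 2 was the high MI library and sat just under the lowest Sham library.

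Dntt, which encodes TdT, was at 60.7, 59.2 and 72.2 CPM in Sham and at 52.8 and 39.5 in Sham-E 2 and Sham-E 3. It was at 26.3, 27.6 and 30.8 CPM in MI, at 21.4, 13.5 and 18.8 in MI-E, and at 9.21 in Sham-E 1. The libraries without infarction, MI and MI-E formed 3 separate tiers once Sham-E 1 was set apart, and MI 2 did not stand out.

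Of the surrogate light chain genes, Vpreb1, which encodes the variable-like part, was at 32.9, 31.4 and 36.6 CPM in Sham and at 23.7 and 26.2 in Sham-E 2 and Sham-E 3. It was at 7.35, 6.05 and 12.1 CPM in MI 1, MI 2 and MI 3, at 6.98, 5.34 and 6.28 in MI-E, and at 0.216 in Sham-E 1. MI and MI-E overlapped, and MI 2, the high library for the Rag genes, was the lowest MI library here. The near copy Vpreb2 was low throughout, between 1.75 and 2.09 CPM in Sham, between 0.0493 and 0.942 in MI and between 0.182 and 0.572 in MI-E, with no count in Sham-E 1.

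Igll1, which encodes the constant-like part, was at 39.8, 42.8 and 50.9 CPM in Sham and at 37.5 and 29.2 in Sham-E 2 and Sham-E 3. It was at 9.53, 14.1 and 22.7 CPM in MI 1, MI 2 and MI 3, at 7.57, 5.29 and 6.05 in MI-E, and at 0.130 in Sham-E 1. All MI-E libraries lay below all MI libraries, which in turn lay below the sham-operated libraries other than Sham-E 1.

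Vpreb3, a VpreB-related gene whose RNA is kept further into B-cell maturation, was at 55.7, 85.2 and 94.2 CPM in Sham and at 71.3 and 63.9 in Sham-E 2 and Sham-E 3. It was at 32.1, 45.6 and 22.4 CPM in MI 1, MI 2 and MI 3, at 36.1, 32.8 and 29.6 in MI-E, and at 5.71 in Sham-E 1. MI and MI-E overlapped fully, since the 3 MI-E libraries lay within the MI range.

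**Figure D2:**
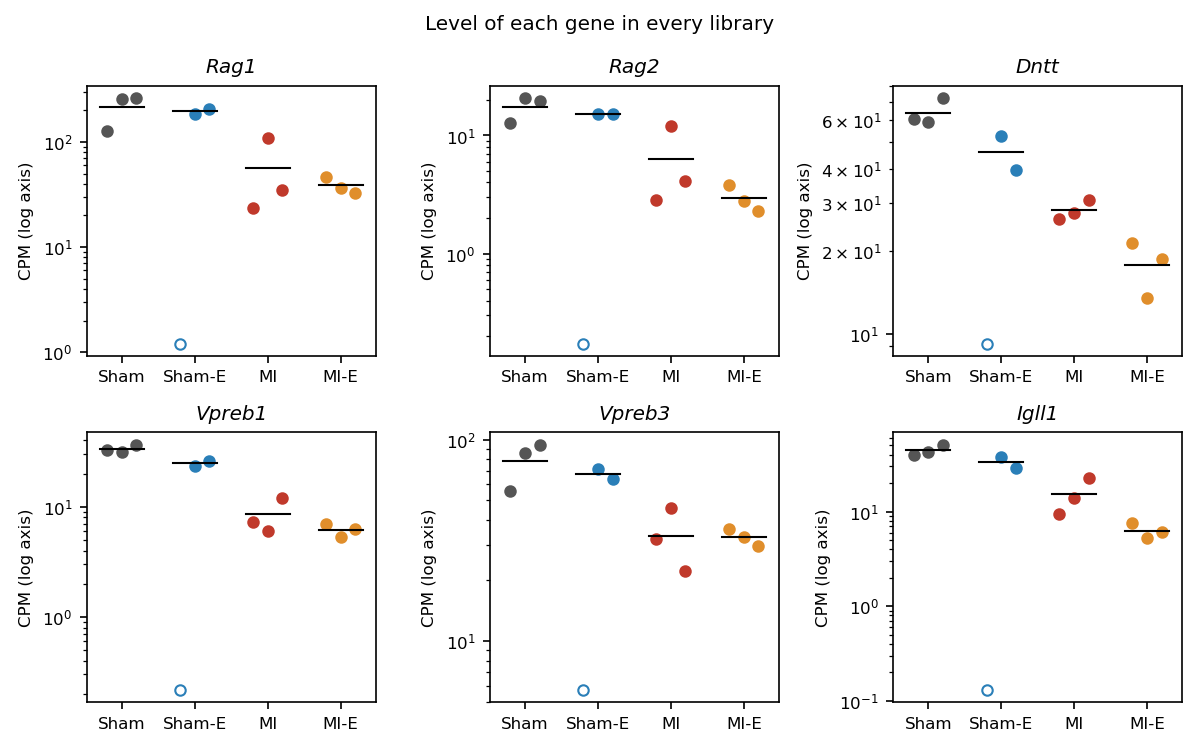
CPM of each gene in every library (points, log axis) by group; the open point is Sham-E 1 and each line is the group mean without Sham-E 1. In every panel the 6 infarct libraries lie below the 5 filled sham-operated points, and Sham-E 1 lies below all others.

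Infarct libraries all lay below the 5 sham-operated libraries other than Sham-E 1 for 6 of 6 genes, an order that held for 3.57% of the 15119 genes tested and was chosen after the values were seen. Sham-E 1 lay below all 11 other libraries for 6 of 6 genes, against 14.4% of genes tested.

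Compared per length, mean TPM in Sham was 283 ± 67.4 (SD, n = 3) for Vpreb3, 93.4 ± 10.4 for Igll1, 86.0 ± 6.02 for Vpreb1, 43.9 ± 4.39 for Dntt, 41.3 ± 14.2 for Rag1 and 11.01 ± 2.496 for Rag2. Igll1 and Vpreb1 did not differ beyond their spread, nor did Dntt and Rag1. In MI the means were 103 ± 39.3 for Vpreb3, 28.4 ± 12.5 for Igll1, 18.8 ± 7.01 for Vpreb1, 17.3 ± 1.69 for Dntt, 10.01 ± 8.741 for Rag1 and 3.66 ± 3.06 for Rag2. The order by mean was that of Sham, but Vpreb3 alone had no library in common with the range of its neighbour. In MI-E, Vpreb3 was at 101 ± 16.8 TPM, Vpreb1 at 13.6 ± 3.01, Igll1 at 11.4 ± 3.12, Dntt at 10.7 ± 3.29, Rag1 at 6.50 ± 1.71 and Rag2 at 1.49 ± 0.495, so the mean of Igll1 stood below that of Vpreb1. Sham-E 2 and Sham-E 3 averaged 241 TPM for Vpreb3, 70.2 for Igll1, 63.3 for Vpreb1, 38.6 for Rag1, 32.1 for Dntt and 9.68 for Rag2. In Sham-E 1 the order was another: Vpreb3 at 19.2 and Dntt at 5.96 led, and Vpreb1 at 0.52, Igll1 at 0.26, Rag1 at 0.22 and Rag2 at 0.1 followed.

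Sham-E 1 held few reads of most of these genes: 28 counts of Rag1, 4 of Rag2, 5 of Vpreb1, 3 of Igll1, 132 of Vpreb3 and 213 of Dntt. Relative to Sham-E 2 and Sham-E 3 together, and with exact Poisson 95% intervals that cover counting error only, Igll1 was 259 times lower (88.5 to 1258) and Rag1 161 times lower (112 to 243). Vpreb1 was 115 times lower (49.1 to 355) and Rag2 87.8 times lower (34.2 to 323). Vpreb3 and Dntt differed less, being 11.9 times lower (9.98 to 14.3) and 5.06 times lower (4.39 to 5.85), and the intervals of these 2 genes did not overlap those of the other 4. Of other B-lineage genes, set beside the 6 after the values were seen, Cd79a was 2.08 times lower (1.99 to 2.17), Ighm 2.51 (2.46 to 2.56) and the interleukin-7 receptor Il7r 4.64 (4.10 to 5.27), with an interval that overlapped that of Dntt. Other listed genes lay further down, such as Fcrla, at 17.6 TPM against 141 and 115 in Sham-E 2 and Sham-E 3, and the transcription factor Irf4, at 4.15 against 27.5 and 24.1. Lower still were the pro-B and pre-B markers Akap12, at 1.00 TPM against 18.4 and 17.1, and Cecr2, at 1.63 against 28.1 and 30.7. Vpreb2 had 0 counts against 78 in Sham-E 2 and Sham-E 3 together. A fall of this size was thus not confined to the 6 genes. Other marker lists moved in this library too. Its mean log2 CPM was 7.61 over 8 erythroid markers, against 9.17 to 10.79 in the 11 others, and 3.70 over 15 pro-B and pre-B markers, against 4.59 to 6.10, and the part of any of this in the low values was not tested.

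Whether infarction alone changed these genes was read from MI against Sham. Every gene was lower in MI, by 2.27 times for Dntt to 3.95 times for Vpreb1, and the libraries did not overlap for 6 of 6 genes, an order found for 13.8% of genes tested. With all 12 libraries, 0 of 6 passed an adjusted p of 0.05 in edgeR's quasi-likelihood test, where 0.417% of all genes passed in either direction and 0.192% as lower. Dntt alone had an unadjusted p under 0.05, and DESeq2 called 0 of 6 as well, where it called 7.81% of genes. Dntt had a log2 fold change of -1.18 ± 0.46 (SE) with an edgeR adjusted p of 0.191, Vpreb1 -1.98 ± 0.90 with 0.259, and Rag1 -1.93 ± 1.11 with 0.358. Vpreb3 changed by -1.23 ± 0.65, Igll1 by -1.53 ± 0.96 and Rag2 by -1.47 ± 0.94, and their adjusted p in edgeR lay between 0.313 (Vpreb3) and 0.41 (Rag2).

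Without Sham-E 1, which is in neither group of that comparison but enters the shared estimate of the spread, edgeR called 5 of 6 genes lower. Of all genes 7.9% passed, and 3.78% as lower. Sham-E 1 was set apart for its low values in these same 6 genes, so their calls depend on that choice. The shares over all genes, in many of which it was not extreme, are therefore no like comparison. The fold changes stayed nearly the same and the SE shrank. Vpreb1 fell by 1.99 ± 0.22 on the log2 scale with an edgeR adjusted p of 8e-04, Dntt by 1.18 ± 0.18 with 0.00364, and Igll1 by 1.53 ± 0.26 with 0.00709. Vpreb3 fell by 1.24 ± 0.24 with an edgeR adjusted p of 0.0129 and Rag1 by 1.93 ± 0.50 with 0.0427, whereas Rag2, at -1.48 ± 0.44, had 0.0637. DESeq2 without Sham-E 1 called 6 of 6, where it called 13.2% of genes. Exact two-sided permutation of 3 against 3 libraries gave p = 0.1 for each gene, the smallest it can give. Leaving out MI 2 in place of Sham-E 1 moved the log2 fold change of Rag1 to -2.88 and that of Rag2 to -2.33, and edgeR called neither (adjusted p = 0.227 and 0.235).

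Infarction with EMPA was set against untreated sham in MI-E against Sham, which shares its Sham libraries with the previous comparison. The 6 genes were lower in MI-E by 2.39 times for Vpreb3 to 7.05 times for Igll1. Libraries did not overlap for 6 of 6 genes, against 17.1% of genes tested. With 12 libraries edgeR called 0 of 6 and 0% of all genes; 4 of the 6 had an unadjusted p under 0.05, and DESeq2 called Dntt alone (1.17% of its genes). Without Sham-E 1 all 6 passed as lower, where 1.61% of all genes passed in edgeR and 1.04% as lower, and DESeq2 called 6 of 6 too (5.59% of its genes). Igll1 fell by 2.82 ± 0.28 on the log2 scale (edgeR adjusted p = 0.000898), Rag2 by 2.57 ± 0.46 (0.0249), Rag1 by 2.46 ± 0.51 (0.0423) and Vpreb1 by 2.44 ± 0.23 (0.000612). Dntt fell by 1.84 ± 0.18 (edgeR adjusted p = 0.000758) and Vpreb3 by 1.25 ± 0.24 (0.0291).

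The infarct comparison under EMPA, MI-E against Sham-E, rests on how Sham-E 1 is treated. With it, the groups overlapped for 6 of 6 genes, while 12.2% of genes tested were lower without overlap, and edgeR called 0 of 6 and 0% of all genes, with 0 of the 6 at an unadjusted p under 0.05. DESeq2 also called 0 of 6 (1.74% of its genes). Without it, MI-E lay below Sham-E for 6 of 6 genes, against 21.6% of genes tested. Then edgeR called 3 of 6 lower, beside 0.755% of genes in either direction and 0.478% as lower. Igll1 fell by 2.4 ± 0.29 on the log2 scale and Vpreb1 by 2.01 ± 0.24, both with an edgeR adjusted p of 0.00477, and Dntt by 1.37 ± 0.19 with 0.00954. Rag2 at -2.36 ± 0.49 (edgeR adjusted p = 0.0586), Rag1 at -2.35 ± 0.54 (0.0765) and Vpreb3 at -1.04 ± 0.26 (0.0948) missed the threshold, and DESeq2 called all 6 (5.04% of its genes).

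EMPA in infarcted mice was read from MI-E against MI. Igll1 and Dntt were lower in every MI-E library than in every MI library, an order found for 10.1% of genes tested, and the other 4 overlapped. No gene passed in edgeR with 12 libraries (0 of 6, where 0.00661% of genes passed), with 0 of the 6 at an unadjusted p under 0.05 and 0 called by DESeq2 (4.23% of its genes). Igll1 changed by -1.29 ± 0.98 on the log2 scale, Rag2 by -1.10 ± 0.97, Dntt by -0.66 ± 0.46, Rag1 by -0.53 ± 1.08, Vpreb1 by -0.46 ± 0.90 and Vpreb3 by -0.02 ± 0.64. Without Sham-E 1 edgeR again called 0 of 6, where it called 0.271% of genes and 0.0645% as lower, and 3 of the 6 had an unadjusted p under 0.05. Igll1 then had -1.29 ± 0.27 with an edgeR adjusted p of 0.0527 and Dntt -0.65 ± 0.18 with 0.079, and DESeq2 without Sham-E 1 called these 2 genes (adjusted p = 0.000774 and 0.0181), with 9.43% of its genes. Leaving out MI 2 turned the Rag1 value to 0.41 and the Vpreb3 value to 0.27, and moved the Rag2 value to -0.24.

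EMPA in sham-operated mice was read from Sham-E against Sham. Dntt, Vpreb1 and Igll1 were lower in all 3 Sham-E libraries than in every Sham library, an order found for 4.46% of genes tested, and they kept it without Sham-E 1, when it was found for 9.12%. Neither edgeR fit called any of the 6 genes or any gene at all (0%), with 0 of the 6 at an unadjusted p under 0.05 in the 12 libraries and Dntt alone without Sham-E 1. DESeq2 called 0 of 6 with Sham-E 1 (0.0132% of its genes) and without it (0.0258%). Without Sham-E 1 the log2 fold changes were -0.47 ± 0.20 for Dntt, -0.43 ± 0.24 for Vpreb1, -0.42 ± 0.29 for Igll1, -0.21 ± 0.27 for Vpreb3, -0.21 ± 0.47 for Rag2 and -0.12 ± 0.54 for Rag1, each with an edgeR adjusted p of 1. With it they ran from -0.70 for Rag1 to -1.01 for Vpreb1.

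**Figure D3:**
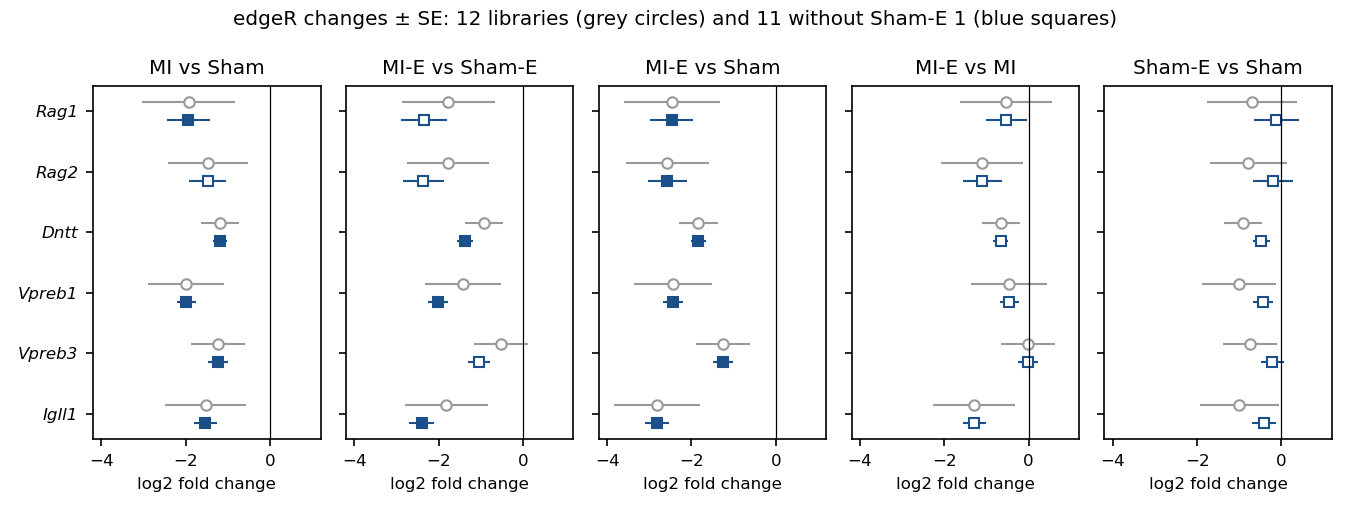
Log2 fold change ± SE of each gene in 5 comparisons by edgeR, with all 12 libraries (grey circles) and without Sham-E 1 (blue squares); filled symbols passed an adjusted p of 0.05. Values of the 12-library fit are all open, while 5 of 6, 3 of 6 and 6 of 6 squares are filled in the first 3 panels and none in the others.

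The difference between the EMPA changes with and without infarction, (MI-E minus MI) minus (Sham-E minus Sham), passed for 0 of 6 genes in edgeR, where 0.00661% of genes passed with 12 libraries and 0.00645% without Sham-E 1. None of the 6 had an unadjusted p under 0.05 with 12 libraries, Igll1 alone did without Sham-E 1, and DESeq2 called 0 of 6 with that library (1.2% of its genes) and without it (0.742%). The log2 difference was -0.29 ± 1.34 for Igll1 with 12 libraries and -0.87 ± 0.39 without Sham-E 1, where its edgeR adjusted p was 0.442. For Rag1, Dntt and Vpreb1 the sign depended on that library: Rag1 went from 0.17 ± 1.52 to -0.41 ± 0.72, Dntt from 0.26 ± 0.64 to -0.18 ± 0.26 and Vpreb1 from 0.55 ± 1.25 to -0.02 ± 0.32.

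Ratios between the genes differed among libraries. How often the group ranges of a ratio separate among other gene pairs was not counted, here or for the ratios below. The TPM ratio of Rag1 to Rag2 was 2.41, 2.79 and 2.802 in MI, below the 3.06, 4.02 and 3.92 of Sham, the 3.90 and 4.08 of Sham-E 2 and Sham-E 3, and the 4.14, 4.22 and 4.96 of MI-E. All MI libraries were thus low and all MI-E libraries high, with Sham between them, but MI-E 2 at 4.14 barely passed Sham-E 3 at 4.08. Rag2 had 50 to 90 counts in the MI-E libraries, and Sham-E 1 was at 2.20 from very few counts. The mean fragment length implied by the deposited counts and TPM moved with the MI group as well. It was 263.1 to 265.1 bases in MI, against 280.1 to 282.6 in MI-E, 270.9 to 280.2 in Sham-E and 284.0 to 286.8 in Sham. Fragment length thus cannot be told apart from group in MI against Sham or MI-E against MI. Its part in those comparisons and in the ratio was not tested.

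Within the surrogate light chain, the TPM ratio of Igll1 to Vpreb1 was 0.99, 1.12 and 1.14 in Sham, 1.07, 1.93 and 1.55 in MI 1, MI 2 and MI 3, and 0.89, 0.82 and 0.79 in MI-E. MI-E lay below MI and Sham without overlap, and its highest library, at 0.89, was just under the 0.92 of Sham-E 3. The Sham-E libraries spread widely, at 1.30 and 0.92 in Sham-E 2 and Sham-E 3 and 0.50 in Sham-E 1. The ratio of Vpreb3 to Vpreb1 was 2.398 to 3.84 in Sham, 4.24 and 3.403 in Sham-E 2 and Sham-E 3, and 6.66 to 8.64 in MI-E, with no overlap between MI-E and the others named. MI was spread widely, with 6.07, 10.5 and 2.56, and Sham-E 1 was at 37.0.

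The ratio of Dntt to Rag1 was 0.82 to 1.71 in Sham, 1.00 and 0.67 in Sham-E 2 and Sham-E 3, and 1.31 to 2.04 in MI-E. MI 2, at 0.88, fell among the sham-operated libraries, whereas MI 1 and MI 3 were at 3.95 and 3.10, and Sham-E 1 was at 27.1. Across the MI group, then, MI 2 was high in Rag1, Rag2 and Vpreb3 and MI 3 was high in Vpreb1 and Igll1.

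**Figure D4:**
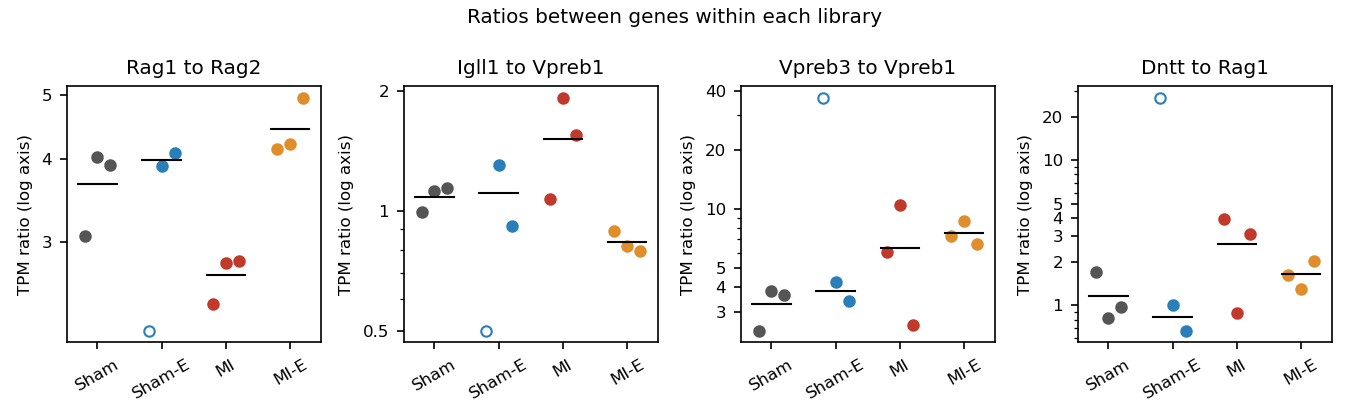
TPM ratios between genes within each library (points, log axes) by group; open points are Sham-E 1 and lines are means without it. Rag1 to Rag2 is lowest in MI among the filled points, Igll1 to Vpreb1 is lowest in MI-E, and Sham-E 1 is at 37.0 for Vpreb3 to Vpreb1 and at 27.1 for Dntt to Rag1.

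The joining machinery that repairs the cut ends is used by all cells. None of its 18 listed genes passed with 12 libraries in MI against Sham or in MI-E against Sham. Without Sham-E 1, edgeR called 2 of 18 lower in MI against Sham, where 3.78% of all genes were called lower: Xrcc6, the Ku70 end-binding protein, fell by 0.98 ± 0.13 on the log2 scale (adjusted p = 0.00205), and the histone H2afx fell by 0.93 ± 0.23 (0.0327). The list's median log2 fold change was -0.23, beside 0.02 over all genes tested. In MI-E against Sham, where 1.04% of all genes were called lower, the 2 called were others, Lig4, the ligase that seals the joint, which fell by 1.24 ± 0.21 (edgeR adjusted p = 0.0181), and the damage kinase Atm, which fell by 0.76 ± 0.16 (0.0334), with a list median of 0.01 beside 0.02. In MI-E against MI none passed without Sham-E 1 either, with H2afx at 0.99 ± 0.24 (edgeR adjusted p = 0.0578) and Dclre1c, the Artemis nuclease that opens hairpin ends, at -0.66 ± 0.16 (0.0604). There 4 of 18 were negative, and the list median was 0.17 beside -0.02 over all genes.

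Among 20 genes of the pre-B-cell receptor and its signalling, edgeR called none with 12 libraries. Without Sham-E 1 it called 7 of 20 lower in MI against Sham, beside 3.78% of all genes, with a list median of -0.57 beside 0.02 over all genes. Blnk, the adaptor below the receptor, fell by 1.12 ± 0.15 on the log2 scale (adjusted p = 0.00197), and Cd79a, its signalling chain, by 1.34 ± 0.22 (0.00552). In MI-E against Sham 2 of 20 were called lower, Blnk and Irf4, beside 1.04% of all genes. In MI-E against MI without Sham-E 1 none of the 20 passed. There 11 of 20 were negative, and the list median was -0.06 beside -0.02 over all genes. Cd79a had the highest value of the list, at 76.1 to 138.4 CPM in MI and 191 to 245 in MI-E. Its log2 difference was 1.00 ± 0.22 with an edgeR adjusted p of 0.0545, beside -1.29 ± 0.27 for Igll1, and the gap between these values was not tested.

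Of 20 transcription factors that act on these genes or their antagonists, edgeR called none with 12 libraries, where Id2, an inhibitor of E proteins, was at 1.82 ± 0.37 in MI against Sham with an adjusted p of 0.0554. Without Sham-E 1, 9 were called lower and 1 higher in MI against Sham, with a list median of -0.51. Of all genes 3.78% were called lower and 7.9% passed in either direction. Lef1 fell by 1.55 ± 0.18 (edgeR adjusted p = 0.000938), Sox4 by 1.39 ± 0.22 (0.00474), Pax5, the B-lineage commitment factor, by 1.16 ± 0.20 (0.006), the E-protein gene Tcf3 by 1.08 ± 0.12 (0.000893) and Ebf1 by 1.05 ± 0.24 (0.0216), while Id2 rose by 1.82 ± 0.34 (0.0116). Id3, another inhibitor of E proteins, fell by 1.02 ± 0.21 (edgeR adjusted p = 0.0136). In MI-E against Sham 6 of 20 were called lower, among them Lef1, Sox4, Pax5 and Ebf1, and none higher, beside 1.04% of all genes called lower. In MI-E against MI none passed, with Tcf3 at 0.59 ± 0.12 (edgeR adjusted p = 0.0514).

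Of 15 other pro-B and pre-B markers, 10 of which are also in the lists above, edgeR called none with 12 libraries and, without Sham-E 1, 13 lower in MI against Sham and 8 lower in MI-E against Sham, where 3.78% and 1.04% of all genes were called lower. The list medians were -1.16 and -1.08. Mean log2 CPM of this list lay between 5.72 and 6.10 in Sham, between 4.59 and 4.94 in MI and between 4.80 and 4.97 in MI-E. For the 6 genes themselves the same mean was 5.46 to 5.99, 3.67 to 4.52 and 3.395 to 3.81. Other lists also shifted between groups, and not all of them downward. Without Sham-E 1, edgeR called 3 of 12 neutrophil markers higher in MI against Sham and 0 lower, beside 7.9% of all genes in either direction. The mean log2 CPM of that list was 10.44 to 11.35 in MI and 10.67 to 10.77 in Sham, so these groups overlapped. Of 6 monocyte markers 2 were called higher and 1 lower. Of 11 marker lists, 4 had every MI library below every Sham library: pro-B and pre-B, plasma cell, stroma and proliferation markers. Of single genes tested, 13.8% held that order. Mature B-cell markers missed this order narrowly, with the highest MI library at 5.661 and the lowest Sham library at 5.658. Without Sham-E 1, 6 of 8 plasma cell markers and 6 of 8 proliferation markers had a negative log2 fold change in MI against Sham. Of the plasma cell markers, edgeR called 3 lower and 1, Xbp1, higher, by 0.58 ± 0.13 (adjusted p = 0.0209). All 10 mature B-cell markers had a negative log2 fold change in MI against Sham without Sham-E 1, with a median of -0.47. In MI-E, 4 lists lay below every Sham library: pro-B and pre-B, plasma cell, plasmacytoid dendritic cell and lymphoid progenitor markers. Of single genes tested, 17.1% held that order. Without Sham-E 1, a negative log2 fold change in MI-E against Sham was found for 6 of 8 plasma cell, 8 of 8 plasmacytoid dendritic cell and 5 of 8 lymphoid progenitor markers. Plasmacytoid dendritic cell markers were at 3.54 to 3.90 in MI-E and 4.36 to 4.75 in Sham (mean log2 CPM), and lymphoid progenitor markers at 5.53 to 5.58 and 5.73 to 5.94, while both overlapped between MI and Sham. Mature B-cell markers were at 5.69 to 6.24 in MI-E, 4.89 to 5.66 in MI and 5.66 to 6.23 in Sham. MI-E thus overlapped Sham there. Stromal markers were at 1.66 to 2.49 in MI-E, 1.40 to 2.01 in MI and 2.43 to 3.15 in Sham. Without Sham-E 1, 6 of these 8 genes had a negative log2 fold change in MI against Sham, and 4 in MI-E against Sham. Il7, also on that list, was at most 0.46 TPM in every library, and its groups overlapped. It ranged over 0.05 to 0.15 TPM among Sham libraries, 0.05 to 0.42 among MI-E libraries and 0.04 to 0.46 among MI libraries. The part of these lists in the levels of the 6 genes was not tested.

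**Figure D5:**
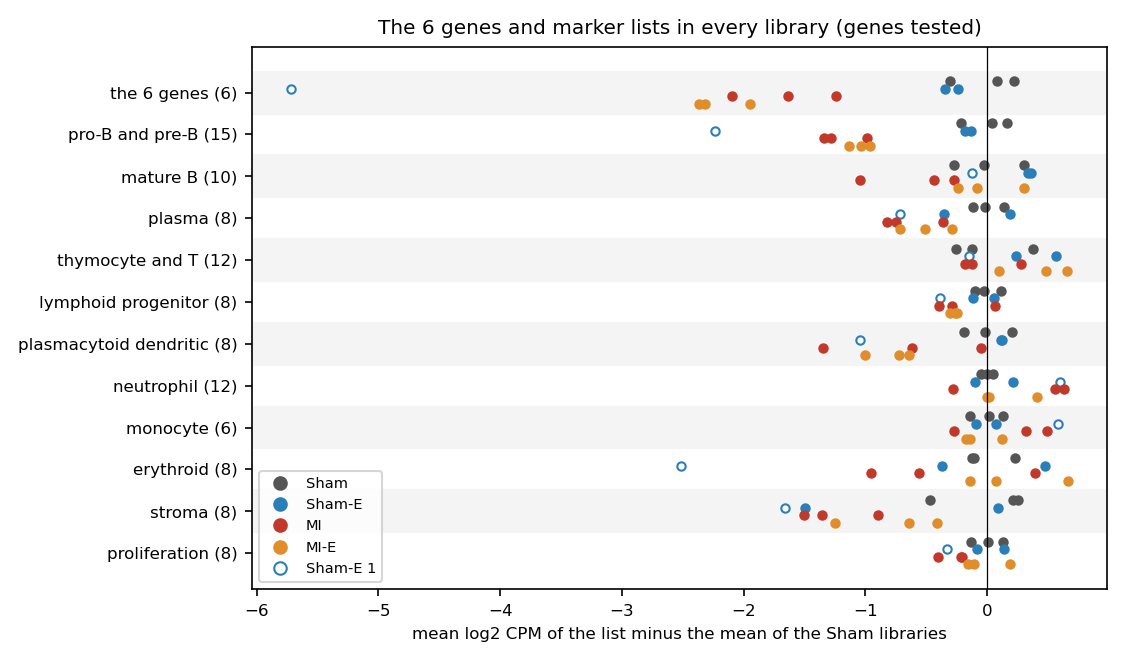
Mean log2 CPM of the 6 genes and of 11 marker lists in every library, minus the mean of the Sham libraries, with the number of genes tested in parentheses; points are coloured by group and the open point is Sham-E 1. The 6 genes and the pro-B and pre-B markers are low in MI and MI-E. Mature B-cell markers of MI-E overlap Sham but lie below the filled Sham-E points.

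The genes whose levels followed the 6 most closely were Uchl1, Lgr5, Gfra1, Pde4c, Tnfrsf19, Rapgefl1, Bcl7a and Akap12. They were taken from 10996 candidates by the lower of 2 Pearson correlations with the mean standardised log2 CPM of the 6, one over 12 libraries and one over the 11 without Sham-E 1, and the libraries fall into clusters that set much of that value. The lower correlation ran from 0.983 for Uchl1 to 0.947 for Akap12. Uchl1, a ubiquitin hydrolase, was at 9.77 to 17.5 CPM in Sham, between 2.69 and 5.55 in MI, between 2.34 and 3.72 in MI-E and 0.432 in Sham-E 1. Lgr5, a receptor for R-spondins, was at 8.19 to 13.6 CPM in Sham, 1.30 to 5.16 in MI, 1.33 to 1.48 in MI-E and 0.0432 in Sham-E 1. As with Rag1 and Rag2, MI 2 was the high MI library for both. Ranked by the 11 libraries alone, 3 of these 8 genes would be among the first 8, and by Spearman's rho 2 would.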

How the data were processed

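RNA from 12 bone marrow libraries was measured by sequencing. Per the submitters' processing notes, CASAVA 1.8, STAR 2.4.0j, RSEM and mm10 were used; their roles are not stated there. The authors deposited expected counts per gene, unscaled, and TPM values, which take transcript length and depth into account. Expected counts were rounded to whole numbers. Column numbers of Sham and MI-E do not match the sample titles, so those columns were tied to their group alone. Nothing in the labels says that libraries came from separate mice, so p-values measure the spread between these samples, which may be technical.

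Genes were filtered with filterByExpr and scaled by TMM (factors 0.941 to 1.06). A quasi-likelihood model in edgeR 4.0.16, under R 4.3.3, took in the 12 libraries with 1 mean for each group and robust dispersions, which left 8 residual degrees of freedom, and 6 comparisons were drawn from it. P-values were adjusted by Benjamini and Hochberg's method across every gene tested and called under 0.05; dividing a log2 fold change by the root of its F gave the SE. DESeq2 1.42.0 and limma 3.58.1 gave alternatives, with a pseudocount of 0.1 for log2 TPM. Of these, the edgeR test alone was run on simulated counts, which held no outlying library such as Sham-E 1. The 6 genes and the lists were chosen with earlier results of these data known. The 8 genes most like the 6 had to average 1 or more in log2 CPM and be no antigen receptor segments or unnamed genes, and list genes named were up to 3 with the smallest p in a comparison, plus called genes picked after their values were seen. Vpreb2 was named as the copy of Vpreb1. Fragment length was estimated from the ratio of deposited counts to TPM over genes with 1 transcript.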

Additional observations from a re-analysis of the deposited data

How the results depend on the processing

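Of the 12 edgeR fits that each left out 1 library, only that without Sham-E 1 called any of the 6 genes. Counts of genes past the threshold, over all genes, are given in the order MI over Sham, MI-E over Sham, MI-E over Sham-E, MI-E over MI, Sham-E over Sham and interaction. They were 63, 0, 0, 1, 0 and 1 in edgeR with 12 libraries. Over the 12 fits that each left out 1 library they ranged from 1 to 1224, 0 to 250, 0 to 117, 1 to 988, 0 to 0 and 1 to 150. The highest values came without Sham-E 1 for the first 3 and without MI 1 for MI-E over MI and the interaction. Of the 6 genes, 0 to 5, 0 to 6 and 0 to 3 were called in the first 3 over those fits, and 0 in each of the others. DESeq2 with 12 libraries gave 1066, 174, 212, 577, 2 and 167 genes, with 1 of the 6 in MI-E over Sham. DESeq2 without Sham-E 1, chosen after seeing the data, gave 2050, 799, 690, 1234, 4 and 115, with 6, 6, 6, 2, 0 and 0 of the 6. Voom with quality weights gave 340, 2619, 3285, 2 and 2 in the first 5, with 1 of the 6 in MI-E over Sham and 1 in MI-E over Sham-E. Trend on log2(TPM + 0.1) gave 269 in MI over Sham, 67 in MI-E over MI and 14 in the interaction, where voom gave 0. Without scaling beyond the total there were 104 in MI over Sham and 2 in MI-E over MI. Without the filter on low counts there were 156 in MI over Sham, 33 in MI-E over MI and 3 in MI-E over Sham. Fits of only the groups compared gave 344 genes and 3 of the 6 in MI over Sham, 3 genes in MI-E over MI, and 2192 genes and all 6 in MI-E over Sham.

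Of 750 single-gene values under an alternative, 674 kept direction and stayed uncalled, 46 became called and 30 changed sign. No call could be lost, since edgeR with 12 libraries called none of the 6 genes in any comparison. The changes of sign were all in MI-E over MI, MI-E over Sham-E or the interaction, and none was called. In MI-E over MI, Vpreb3 was at 0.012 without scaling, 0.036 by voom and 0.031 by trend, and Rag1 at 0.032 by voom with weights. Leaving out 1 library, Rag1 ran from -0.90 to 0.41 and Vpreb3 from -0.24 to 0.27. In MI-E over Sham-E, voom gave 0.064 for Rag1, 0.19 for Vpreb1, 0.13 for Vpreb3 and 0.14 for Igll1. In the interaction, Rag2 and Igll1 were at 1.43 and 1.77 by voom and at 1.04 and 1.71 by trend, and Dntt at -0.11 by voom with weights. DESeq2 without Sham-E 1 gave -0.42 for Rag1, -0.19 for Dntt and -0.029 for Vpreb1. Leaving out 1 library, the interaction ran from -0.41 to 1.11 for Rag1, -0.18 to 0.76 for Dntt, -0.022 to 1.03 for Vpreb1, -0.88 to 0.55 for Rag2 and -0.87 to 0.33 for Igll1. The cause of these changes was not tested. By log2 TPM, 5 marker lists in place of 4 had every MI library below every Sham library, the added list being mature B-cell markers. Each motif was found in as many of the 6 genes in the 250 bases alone. No paired analysis was possible because the columns of Sham and MI-E carry numbers that are not those of the sample titles. Counts of 3 to 28 in Sham-E 1 limit what can be said of Rag1, Rag2, Vpreb1 and Igll1 there.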
